A study of Mus musculus with 7 samples.

Results

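F-box proteins are the interchangeable part of the SCF ubiquitin ligases. In these complexes Cul1 is the scaffold, Skp1 joins the F-box protein to one end of Cul1, and Rbx1 at the other end recruits the ubiquitin-conjugating enzyme. The F-box protein binds the substrate, so that each complex marks its own set of proteins for the proteasome, and a fully grown oocyte uses this route to control the proteins that hold or release meiosis. The genes described here are the F-box genes with an Fbxl symbol (leucine-rich repeats) or an Fbxo symbol (other domains), together with Skp2, the Fbxw genes that lie outside the tandem Fbxw cluster of chromosome 9 (WD40 repeats), Cul1 and Rbx1. They were chosen by symbol. Of 33437 oocyte transcripts in the table, 40 are described here: 11 Fbxl genes and 23 Fbxo genes, and 6 of the 12 genes that were listed singly (Skp2, Cul1, Rbx1, Fbxw2, Fbxw8 and Fbxw11).

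Transcription was measured by RNA-seq of single germinal vesicle (GV) oocytes, which are fully grown and still arrested in meiotic prophase, from C57BL6 females aged 21 days (C57BL/6OlaHsd background in the study's methods). In the Setd1b cKO group (n = 4) the females were Setd1b floxed/floxed and Gdf9-Cre positive, and in the Setd1b WT group (n = 3) they were Setd1b floxed/floxed and Gdf9-Cre negative, so that both groups carried the floxed allele. Gdf9-Cre acts in the oocyte from early folliculogenesis and not before, and the study's methods also allow control females with a single floxed allele and Gdf9-Cre, which the labels of these libraries do not name. Each library is 1 oocyte, no label ties an oocyte to its mother, and p-values measure only the spread between these oocytes.

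The libraries held between 8582493 and 12972366 mapped reads, as recovered from the deposited values. Levels are in RPM, read counts scaled so that every library has the same number of mapped reads. A single read equals 0.0771 to 0.117 RPM, and a count of 0 allows a level of 0.231 to 0.350 RPM (3 reads), which covers counting error alone. RPM is relative to the reads of each library, and a change in the total RNA of an oocyte cannot be seen in it. The share of mapped reads outside all transcripts was 13.2% to 16.4% in the Setd1b cKO and 9.57% to 9.90% in the WT, and its part in the results was not tested. Setd1b, placed by its coordinates, was at 8.31, 16.7, 12.8 and 2.68 RPM in the Setd1b cKO and at 17.7, 16.3 and 8.61 RPM in the WT, which overlap, and since the value covers the whole gene it does not check the deletion. Of 12 oocyte markers 11 had a transcript, and they summed to 21181 to 21775 RPM in the cKO and 25398 to 26404 RPM in the WT. Among 17 granulosa and cumulus cell markers 15 had a transcript, and they summed to 77.7 to 98.1 RPM in the cKO and 52.2 to 72.5 RPM in the WT; of the defining markers, Amh and Foxl2 were at 0 in the WT and at most 2 reads in the cKO, Fshr was at 0 to 5.15 RPM in the cKO and 0 to 2.92 RPM in the WT, and Cyp19a1 at 19.5 to 30.6 and 17.1 to 27.3 RPM. Of the 6 markers tested 5 had a log2 fold change above 0, against 60.3% of all transcripts tested. Their median was 0.39, against 0.12, and 0 were past the threshold, against 5.71%. Of the 6, Nr5a2 alone had every cKO library above every WT library, at 32.5 to 50.8 against 27.4 to 28.3 RPM (log2 fold change 0.44, limma adjusted p = 0.281). Inha was at 7.03, 11.4, 13.2 and 0.583 RPM in the cKO and 0.810, 4.32 and 0 RPM in the WT (log2 fold change 1.70, limma adjusted p = 0.225). The other 9 markers were not tested: the cKO mean was above the WT mean in 6, with up to 7.14 RPM in Hsd3b1, and below it in 3 (Cyp11a1, Has2 and Ptgs2), and the genotypes overlapped in all 9. The part of these markers in the results was not tested.

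Among the F-box and SCF genes, Fbxl6 alone passed the test. Of the 40 genes, 32 reached 1 RPM in at least 3 libraries and were tested with limma on log2(RPM + 1), adjusted by Benjamini-Hochberg over all 18179 transcripts tested. With the threshold set at an adjusted p under 0.05 and more than 2-fold, 1 of the 32 genes was lower in the Setd1b cKO (Fbxl6) and 0 were higher, beside 1.95% lower, 3.76% higher and 5.71% in either direction among all transcripts tested. Without the limit on fold the same gene alone passed, against 6.15% of all transcripts. An unadjusted p under 0.05 was found for 4 genes (12.5%, against 21.7% of all transcripts tested).

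There was no overlap between the libraries of the genotypes in 6 of the 32 genes (18.8%), beside 20.3% of all transcripts tested. In Fbxo34, Fbxo16, Fbxl21 and Fbxo32 every cKO library was above every WT library (13.2% of all transcripts tested), and in Fbxl6 and Fbxo40 every cKO library was below (7.14%). The median log2 fold change was 0.18 over the 32 genes and 0.12 over all transcripts tested, and 62.5% of the genes and 60.3% of all transcripts had a value above 0. In 25 genes (78.1%) the log2 fold change was between -0.5 and 0.5, as it was in 64.9% of all transcripts tested. Standard errors ran from 0.19 to 0.65 on the log2 scale, with a median of 0.28, so that for most of these genes a change of less than 2-fold was not detectable with 7 oocytes.

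**Figure D1:**
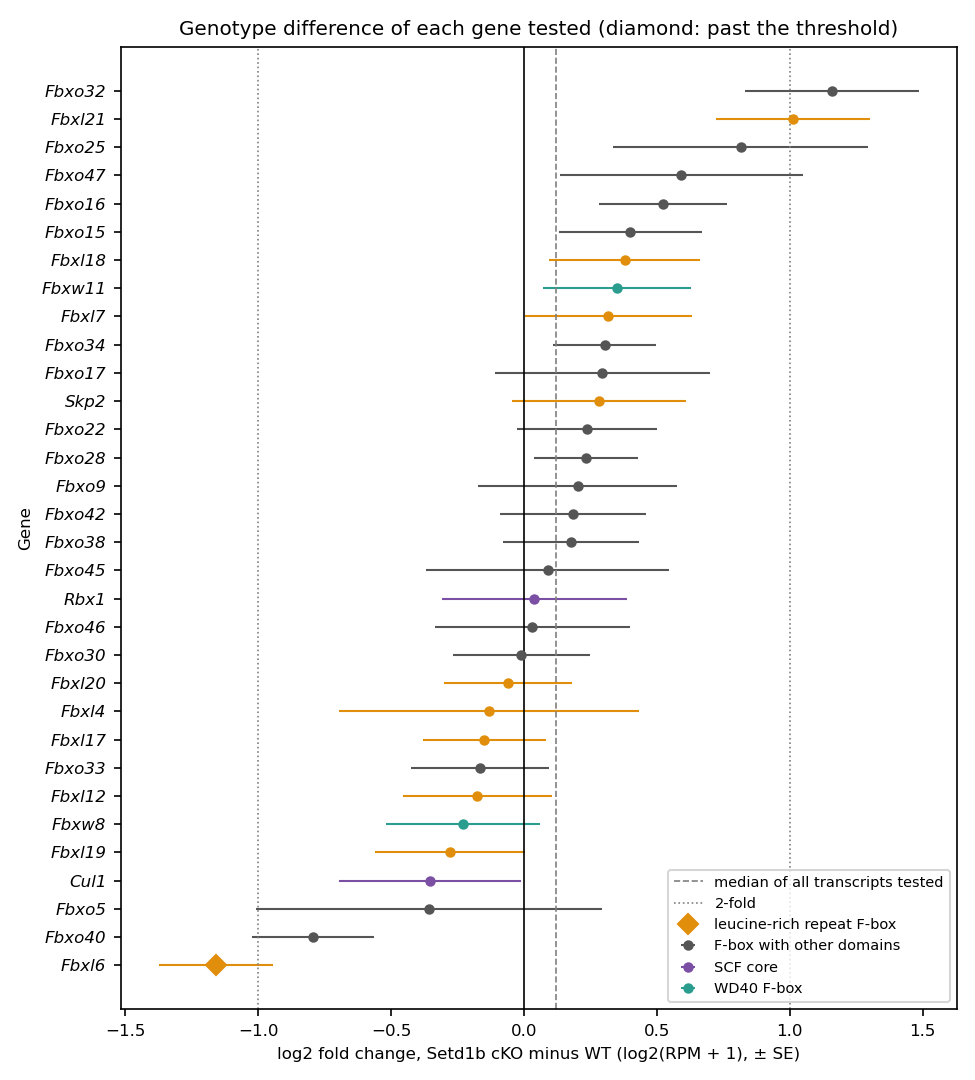
Log2 fold change (Setd1b cKO minus WT, on log2(RPM + 1), horizontal axis) of the 32 genes tested, with the standard error as a bar, the colour showing the domain class, the dashed line the median of all 18179 transcripts and the dotted lines 2-fold. Fbxl6, at -1.16, is the one gene past the threshold, and 25 genes (78.1%, against 64.9% of all transcripts tested) lie between -0.5 and 0.5.

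Since the share of higher and lower transcripts depended on how libraries were scaled, the median was followed under each scaling. Over all transcripts tested it moved from 0.12 to -0.03 when libraries were centred on their median transcript, to 0.01 with quantile normalisation and to 0.20 with scaling by the reads within transcripts. The median of the F-box and SCF genes moved with it, to 0.03, 0.06 and 0.26, and stayed above that of all transcripts by less than 0.1. Past the threshold there were 683 higher and 355 lower transcripts with the deposited scaling, 458 and 531 after centring, 428 and 442 with quantile normalisation and 836 and 310 with scaling by the reads within transcripts. Under each of these Fbxl6 was the only one of the 40 genes past the threshold.

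The promoters of these genes were compared by their CpG content, because the enzyme deleted here methylates histone H3 at lysine 4, a mark of CpG-rich promoters. In the study, however, regions that lost the mark in Setd1b cKO oocytes were poor in CpG, and regions that gained it were rich. The study ties SETD1B to gene expression and another such enzyme, MLL2, to CpG content. RefSeq start sites on GRCm38.p6 were matched for 30 of the 40 genes, and not for Fbxl6, Fbxl8, Fbxo15, Fbxo16, Fbxo25, Fbxo32, Fbxo38, Fbxo45, Fbxo47 and Fbxw8. In the 250 bases before the start these genes held a median of 15 CpG, read as the letters CG, whose complement is the same on the other strand, against 6 in all 32851 promoters and 10 in 21263 promoters of protein-coding genes. At least 10 CpG were found in 25 of the 30 (83.3%), against 37.8% of all and 50.1% of protein-coding promoters. Of the 30, 23 were tested, whereas the promoters they are set against were not limited to transcripts tested. Whether other genes expressed in these oocytes are as rich in CpG was not examined. Among the genes with a match, the windows below belong to Fbxo40, with the largest decrease short of the threshold, and Fbxl21, with the largest increase at 4 RPM or more, neither of which passed the test, and are shown because they differ widely in CpG content. Capitals mark each CpG, 5′ to 3′ on the strand of the gene.
Fbxo40, chr16:36990468-36990717, minus strand: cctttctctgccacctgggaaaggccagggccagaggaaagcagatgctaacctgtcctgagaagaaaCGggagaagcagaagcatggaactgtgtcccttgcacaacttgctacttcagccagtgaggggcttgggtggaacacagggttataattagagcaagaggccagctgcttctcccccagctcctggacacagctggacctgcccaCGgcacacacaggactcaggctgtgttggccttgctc
Fbxl21, chr13:56522222-56522471, plus strand: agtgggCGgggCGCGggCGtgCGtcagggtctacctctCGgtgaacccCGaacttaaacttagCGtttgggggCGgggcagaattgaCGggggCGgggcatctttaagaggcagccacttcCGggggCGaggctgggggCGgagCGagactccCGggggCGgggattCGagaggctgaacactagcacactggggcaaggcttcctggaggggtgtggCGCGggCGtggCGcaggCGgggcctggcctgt

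The Fbxo40 window holds 2 CpG, and 29.0% of all promoters hold as few or fewer. The Fbxl21 window holds 23 CpG, which is at least as many as in 88.0% of all promoters. The deposited oocyte transcript of Fbxo40 begins at the RefSeq start itself, whereas that of Fbxl21 begins 1411 bases further upstream, so that the window shown is not the one in front of the oocyte transcript. Matched genes tested with a log2 fold change below 0 held from 2 CpG in Fbxo40 to 40 in Fbxo30 (-0.01). Those above 0 held from 10 in Fbxo9 (0.20) to 31 in Fbxo42 (0.18). A relation between CpG content and direction was not tested. These counts describe the sequence and say nothing of the mark in these oocytes.

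The levels of the core subunits come first, because they are shared by every SCF ligase. Rbx1, the RING subunit, was the most abundant of the 40 genes, with 409, 372, 621 and 863 RPM in the Setd1b cKO (replicates 1 to 4, the order used throughout) and 390, 444 and 813 RPM in the WT (replicates 1 to 3). In each genotype 1 library, cKO replicate 4 and WT replicate 3, was above the rest, and the genotypes overlapped across nearly their whole range. The difference, 0.04 on the log2 scale (SE 0.35, limma adjusted p = 0.969), was far smaller than its error, and its sign depended on the scaling, with -0.12 after centring.

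Cul1, the scaffold, was at 374, 593, 383 and 258 RPM in the cKO and 615, 650 and 297 RPM in the WT. The same libraries that were highest for Rbx1 were lowest for Cul1. Its difference of -0.35 on the log2 scale (SE 0.34, limma adjusted p = 0.615) was within the spread between oocytes. With each library left out it ran from -0.72 without WT replicate 3 to -0.15 without WT replicate 2. Expressed per kilobase of the principal GENCODE transcript, the WT mean of Rbx1 was 328 RPM per kb and that of Cul1 165 RPM per kb.

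The adaptor Skp1a had no row under its own symbol, and a transcript was assigned to it by coordinates, outside the 40 genes. Its mean was 5425 ± 667 RPM over the cKO (SD, n = 4) against 5473 ± 613 RPM over the WT (SD, n = 3). This level exceeded that of each of the 40 genes in every library. The difference was smaller than the spread (log2 fold change -0.02, SE 0.25, limma adjusted p = 0.983), and its sign turned with scaling by the reads within transcripts (0.06) and with quantile normalisation (0.45).

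**Figure D2:**
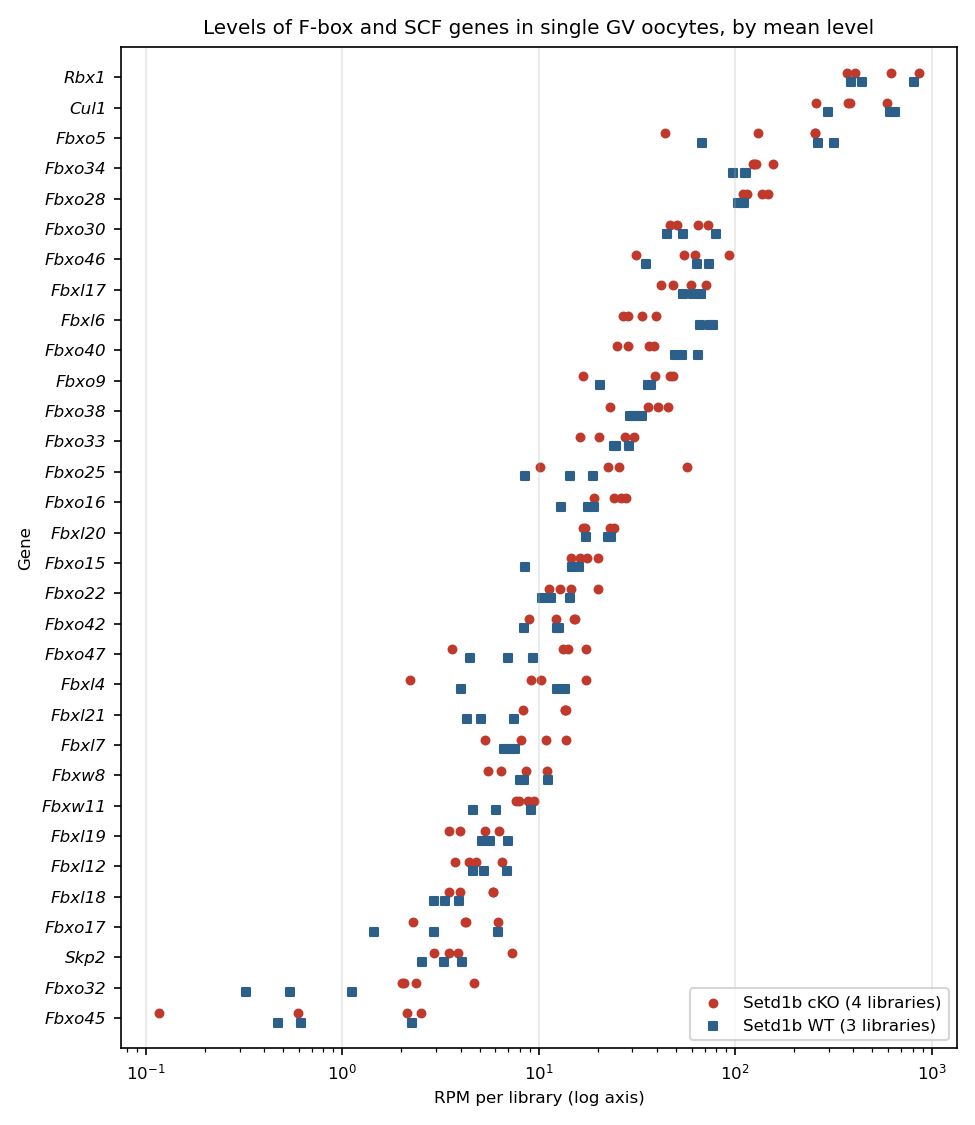
Level in RPM (log axis) of each gene tested in each of the 4 Setd1b cKO libraries (circles) and 3 WT libraries (squares), ordered by the mean level. Rbx1, Cul1 and Fbxo5 lead and 5 genes have a mean of at least 100 RPM, while Fbxl6 and Fbxo40 are the 2 genes in which all cKO libraries lie to the left of all WT libraries.

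The F-box genes covered a wide range of levels. Per kilobase of principal transcript, Fbxo5 led the WT with 111 RPM per kb, followed by Fbxl6 with 42.3, Fbxo34 with 36.6 and Fbxo28 with 21.8 RPM per kb. By mean RPM without regard to length, 12 of the 40 genes were under 4 RPM, 12 between 4 and 16 RPM, 11 between 16 and 64 RPM and 5 above 64 RPM. Fbxl8, Fbxl15, Fbxo4, Fbxo6, Fbxo39, Fbxo41, Fbxo48 and Fbxw2 were under the limit on low values, with no value above 1.81 RPM in any library. When all 33437 transcripts were fitted without that limit, Fbxo41 alone of these 8 had an adjusted p under 0.05 (0.0334), with a log2 fold change of 0.46, well short of 2-fold. It had at most 6 reads in a library, at 0.495, 0.329, 0.522 and 0.466 RPM in the cKO and 0.0810, 0.0771 and 0 RPM in the WT, from a transcript that shares 0.046 of the joint span with the annotated gene.

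Fbxl6 was the gene that fell. It encodes a leucine-rich repeat F-box protein and lies at chr15:76535722-76540351 (minus strand, GRCm38), a transcript that shares 0.653 of the joint span with the annotated gene. Setd1b cKO replicates 1 to 4 were at 33.7, 26.9, 28.5 and 39.6 RPM, and WT replicates 1 to 3 at 74.4, 65.9 and 76.8 RPM. Every cKO oocyte was well below every WT oocyte, and the oocytes of each genotype were close to each other.

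Fbxl6 fell from 72.4 ± 5.73 RPM over the WT (SD, n = 3) to 32.2 ± 5.74 RPM over the cKO (SD, n = 4). On the log2 scale the difference was -1.16, with SE 0.21 and a limma adjusted p of 0.0125. With each library left out in turn the adjusted p ran from 0.00509 to 0.0607, and the call was lost without WT replicate 1 (-1.14, adjusted p = 0.0607) and without WT replicate 2 (-1.22, adjusted p = 0.0556). A transcript on the other strand overlaps Fbxl6 by 1703 bases, and as the library kit does not mark the strand their reads cannot be told apart there. That transcript was at 10.7 to 19.99 RPM in the cKO and 8.40 to 18.8 RPM in the WT (log2 fold change 0.06, limma adjusted p = 0.948).

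Fbxo40, known from skeletal muscle, where it targets the insulin receptor substrate IRS1, had the next largest decrease. Its values were 24.9, 28.4, 38.5 and 36.3 RPM in the cKO and 64.4, 53.3 and 49.6 RPM in the WT. The genotypes did not overlap, with a gap of more than 10 RPM between the highest cKO and the lowest WT oocyte. The log2 fold change of -0.79 (SE 0.23) did not pass the test (limma adjusted p = 0.0712), and over 21 alternatives it lay between -0.95 and -0.68, with adjusted p from 0.0217 to 0.239.

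**Figure D3:**
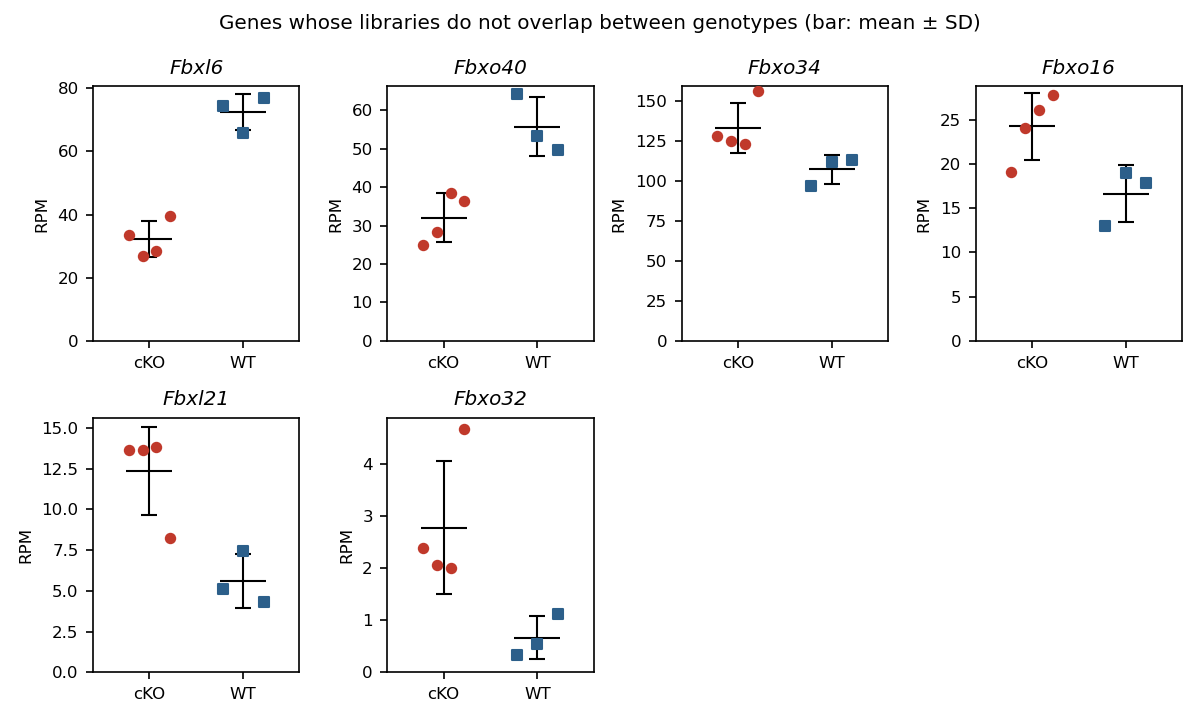
Level in RPM (axes from 0) of the 6 genes tested whose libraries do not overlap between the genotypes, with each library as a point and the mean ± SD as a bar (n = 4 Setd1b cKO, n = 3 WT). Fbxl6 shows the widest gap relative to its spread, from 39.6 RPM in the highest cKO to 65.9 RPM in the lowest WT library, and a single cKO library stands away from the other 3 in Fbxl21, Fbxo32 and Fbxo34.

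Fbxl21 encodes an F-box protein that binds the cryptochromes of the circadian clock. Its levels were 13.7, 13.7, 13.8 and 8.27 RPM in the cKO and 5.10, 7.48 and 4.30 RPM in the WT. All cKO oocytes were above all WT oocytes, by less than 1 RPM at the closest.

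The Fbxl21 difference on the log2 scale was 1.01 (SE 0.29, limma adjusted p = 0.0670), short of the threshold. Without cKO replicate 4, the lowest of its group, it was 1.18 (adjusted p = 0.0258). Without cKO replicate 4 and WT replicate 3 together, a refit added after seeing the data, it was 1.03 (adjusted p = 0.0344). Over 3164 bases Fbxl21 overlaps a transcript of the other strand that itself rose, from 3.47 to 9.80 RPM in the WT to 13.4 to 32.2 RPM in the cKO (log2 fold change 1.51, limma adjusted p = 0.0427). Reads of the shared stretch cannot be told apart between them.

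Fbxo32, or atrogin-1, is a muscle atrophy gene at a low level in these oocytes, and it was singled out after its values were seen. It was at 2.38, 2.06, 2.00 and 4.66 RPM in the cKO and 0.324, 0.540 and 1.12 RPM in the WT. The genotypes did not overlap, and 40 reads were the most in any library. The difference of 1.16 on the log2 scale (SE 0.33) had a limma adjusted p of 0.0647. It lay between 0.45 and 2.16 over 20 alternatives. In 1 of them, added after seeing the data, it was past the threshold, without cKO replicate 4 and WT replicate 3 (1.14, adjusted p = 0.0456).

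Fbxo25, Fbxo47, Fbxo16 and Fbxo15 followed among the values above 0 at 4 RPM or more. Fbxo25, a relative of Fbxo32, was at 22.5, 57.0, 25.5 and 10.1 RPM in the cKO and 18.9, 14.5 and 8.51 RPM in the WT, with 1 high cKO oocyte and overlapping groups (log2 fold change 0.82, SE 0.48, limma adjusted p = 0.367). With each library left out Fbxo25 ran from 0.41 without cKO replicate 2 to 1.21 without cKO replicate 4 (limma adjusted p = 0.0714). Fbxo47, known from meiotic cells, was at 13.3, 17.5, 14.02 and 3.61 RPM in the cKO and 9.39, 7.01 and 4.49 RPM in the WT, and again the groups overlapped through cKO replicate 4 (0.59, SE 0.46, adjusted p = 0.512). With each library left out Fbxo47 ran from 0.35 without WT replicate 3 to 1.04 without cKO replicate 4 (limma adjusted p = 0.0568). Fbxo16 was at 19.1, 24.0, 26.1 and 27.8 RPM in the cKO and 13.0, 19.0 and 17.9 RPM in the WT, groups that touch without overlapping (0.53, SE 0.24, adjusted p = 0.237).

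Fbxo15, first known as a gene of embryonic stem cells, was at 20.1, 16.2, 14.5 and 17.7 RPM in the cKO and 16.03, 14.7 and 8.51 RPM in the WT, with 1 low WT oocyte and overlapping groups (log2 fold change 0.40, SE 0.27, limma adjusted p = 0.442).

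Fbxo34 and Fbxo28 were among the most abundant F-box genes and had the smallest standard errors of the 32 genes. Fbxo34 was at 128, 125, 123 and 157 RPM in the cKO and 97.1, 112 and 113 RPM in the WT, without overlap (log2 fold change 0.30, SE 0.19, limma adjusted p = 0.415). Fbxo28 was at 110, 136, 146 and 115 RPM in the cKO and 103, 111 and 108 RPM in the WT, with cKO replicate 1 just inside the WT range (0.23, SE 0.20, adjusted p = 0.553). Fbxo30, a muscle atrophy ligase, was at 50.5, 73.0, 64.7 and 46.8 RPM in the cKO and 54.4, 80.2 and 45.2 RPM in the WT (-0.01, SE 0.26, adjusted p = 0.990), but its transcript also spans Epm2a, so that its value is not that of Fbxo30 alone.

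The F-box genes best known from the cell cycle did not pass the test. Fbxo5, or Emi1, an inhibitor of the anaphase-promoting complex, was at 254, 254, 131 and 43.8 RPM in the cKO and 318, 263 and 67.5 RPM in the WT. It had the largest standard error of the 32 genes, and the spread within each genotype exceeded the difference between them. The difference of -0.36 on the log2 scale (SE 0.65, limma adjusted p = 0.813) became 0.19 without cKO replicate 4.

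Skp2, which targets the cyclin-dependent kinase inhibitor p27, was at 3.86, 7.33, 3.48 and 2.91 RPM in the cKO and 4.05, 2.54 and 3.27 RPM in the WT (log2 fold change 0.28, SE 0.33, limma adjusted p = 0.687). Fbxw11, one of the β-TrCP proteins that recognise phosphorylated substrates such as β-catenin, was at 7.92, 8.81, 7.66 and 9.44 RPM in the cKO and 4.62, 6.09 and 9.17 RPM in the WT (0.35, SE 0.28, adjusted p = 0.524). Both genes were low and both overlapped between genotypes. Its paralog Btrc, assigned by coordinates and outside the 40 genes, was at 177, 198, 145 and 55.8 RPM in the cKO and 231, 174 and 93.1 RPM in the WT (-0.26, SE 0.44, adjusted p = 0.797).

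Fbxw7, the F-box protein of cyclin E and Myc, was likewise assigned by coordinates. It was at 27.7, 33.8, 49.0 and 24.2 RPM in the cKO and 17.7, 22.1 and 20.4 RPM in the WT. Each cKO oocyte was above each WT oocyte, by little more than 2 RPM at the closest, and the log2 fold change of 0.68 (SE 0.27) did not pass the test (limma adjusted p = 0.168). Fbxl19, an F-box protein with a CXXC domain that binds CpG-rich DNA, was at 3.96, 5.35, 6.27 and 3.50 RPM in the cKO and 6.96, 5.63 and 5.15 RPM in the WT (-0.28, SE 0.28, adjusted p = 0.633), from a transcript that also overlaps Orai3.

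The other 15 genes tested did not pass the test. Their log2 fold changes ran from -0.23 to 0.38, 9 above 0 and 6 below, the genotypes overlapped in all 15, and the smallest limma adjusted p was 0.496. Of the 15, the genes in the next sentences were picked after their values were seen. Fbxl17, which removes misassembled BTB proteins, was at 71.0, 48.5, 42.1 and 59.9 RPM in the cKO and 67.0, 60.7 and 54.0 RPM in the WT (-0.15, SE 0.23). Fbxl4, a mitochondrial F-box protein, was at 9.11, 17.5, 10.3 and 2.21 RPM in the cKO and 13.6, 12.3 and 4.02 RPM in the WT (-0.13, SE 0.56). Fbxl17 varied less than 2-fold among the 7 oocytes, whereas Fbxl4 varied more between oocytes of one genotype than between the genotypes. Fbxo46 was at 62.2, 93.2, 54.6 and 31.1 RPM in the cKO and 73.4, 63.6 and 35.3 RPM in the WT, a wide range shared by both (0.03, SE 0.37).

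In part of these genes a pair of libraries, 1 of each genotype, lay at the same end of their groups. In 13 of the 32 genes (40.6%) cKO replicate 4 was the lowest of its group and WT replicate 3 the lowest of its own, against 25.2% of all transcripts tested, and in 6 genes (18.8%) both were the highest, against 22.2%. Cul1, Fbxo5, Fbxo46, Fbxo9, Fbxl4 and Fbxo47 belonged to the first kind and Rbx1 to the second. What sets these oocytes apart was not tested. Without the pair of libraries, a refit added after seeing the data, 1029 of 17208 transcripts tested were higher and 498 lower. Of the 32 F-box and SCF genes tested, Fbxl21 and Fbxo32 were higher and 1 gene was lower.

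**Figure D4:**
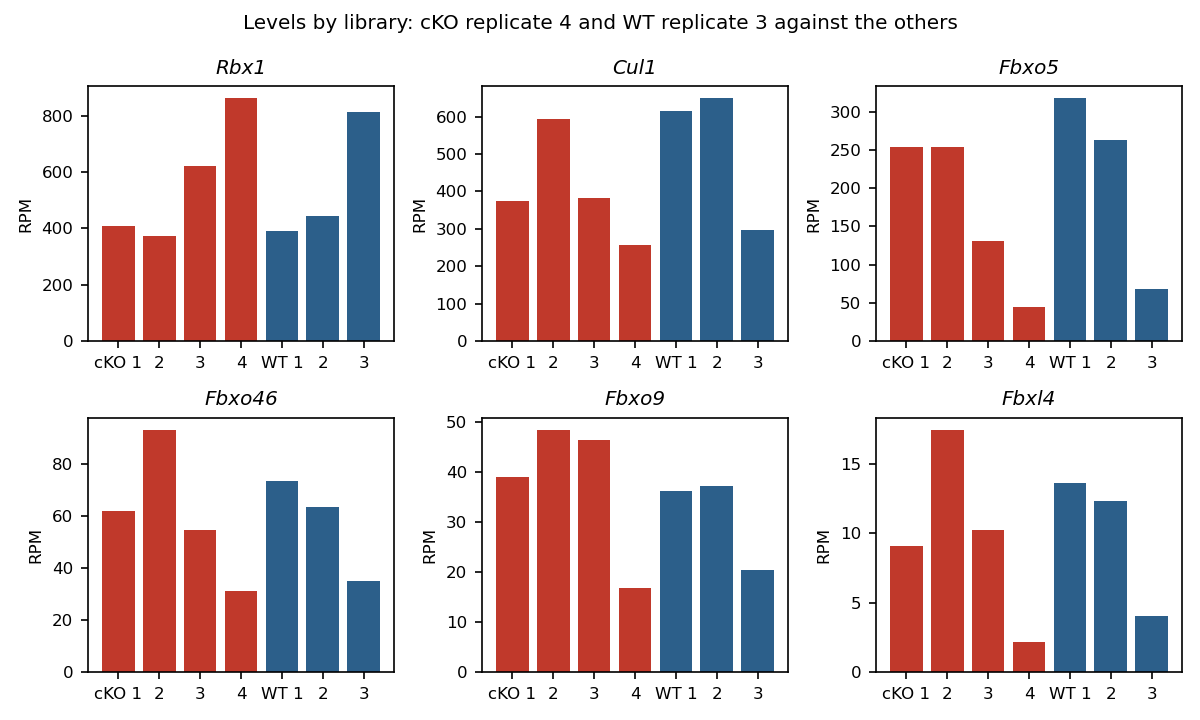
Level in RPM (bars from 0) of 6 genes in each Setd1b cKO library (replicates 1 to 4) and WT library (replicates 1 to 3). In Cul1, Fbxo5, Fbxo46, Fbxo9 and Fbxl4 cKO replicate 4 and WT replicate 3 are the lowest of their genotypes, as in Fbxo5 at 43.8 and 67.5 RPM, and in Rbx1 they are the highest, at 863 and 813 RPM.

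By domain class, 18 Fbxo genes were tested, 14 with a log2 fold change above 0 and 4 below, with 0 past the threshold and a median of 0.22 (from -0.79 to 1.16). Of 10 genes with leucine-rich repeats, Skp2 included, 4 were above 0 and 6 below, with Fbxl6 past the threshold and a median of -0.10 (from -1.16 to 1.01). Fbxw11 and Fbxw8, which works with Cul7, were the WD40 genes tested, at 0.35 and -0.23. Among all transcripts tested 60.3% had a value above 0, the median was 0.12 and 5.71% were past the threshold. The classes were not tested against each other.

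Of 30 partner genes of the SCF complexes tested, 1 was past the threshold (3.33%, against 5.71% of all transcripts tested). Among the other cullins and their RING partner 5 of 8 genes had a transcript and were tested, with 0 past the threshold and a median log2 fold change of 0.08. The COP9 signalosome, which removes NEDD8 from cullins, had 7 of 9 genes tested, 0 past the threshold and a median of 0.03. Of the ubiquitin-conjugating enzymes of SCF ligases 6 of 8 were tested, with 0 past the threshold and a median of -0.06, and of the F-box genes under other symbols 2 of 5, with 0 past the threshold and a median of 0.34.

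Neddylation and SCF exchange, the steps that switch cullins on and swap their F-box proteins, had 10 of 15 genes tested, a median of 0.07 and 1 gene past the threshold. Ube2f, the NEDD8-conjugating enzyme that serves Cul5, was at 205, 192, 160 and 143 RPM in the cKO and 92.5, 75.2 and 77.1 RPM in the WT. Every cKO oocyte was above every WT oocyte by at least 50 RPM. It rose by 1.08 on the log2 scale (SE 0.21, limma adjusted p = 0.0150), but was short of 2-fold after centring (0.93) and with median-of-ratios scaling (0.96), and was not called without cKO replicate 1 (adjusted p = 0.0507) or WT replicate 2 (adjusted p = 0.0829).

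Known substrates of F-box proteins, such as cyclins, Cry1 and Wee1, are listed because the ligases act on their proteins, although only their RNA was measured. Of 27 genes 16 were tested, 6 above 0 and 10 below, with 0 past the threshold and a median of -0.15, beside 60.3% above 0, 5.71% past the threshold and a median of 0.12 over all transcripts tested. Of the oocyte markers 11 were tested, 1 above 0 and 10 below (against 39.7% below 0 among all transcripts), with a median of -0.38, and 1 was past the threshold, Mos, the kinase that holds the egg in metaphase of meiosis II (log2 fold change -1.34, SE 0.20, limma adjusted p = 0.00581).

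The tandem Fbxw genes of chromosome 9 are given for comparison. All 9 with a transcript were tested and 8 were lower past the threshold (against 1.95% of all transcripts tested), with a median of -1.40 (from -1.77 to -0.94). In all 9 every cKO library was below every WT library (against 7.14% of all transcripts tested). With single libraries left out the count fell to 2 without WT replicate 2 (Fbxw14 and Fbxw20), 4 without WT replicate 1 and 4 without cKO replicate 3, and 6 of the 8 lost the call in at least 1 such fit. Their summed level was 5224 to 8873 RPM in the cKO and 15650 to 24547 RPM in the WT. How reads were divided among the copies was not tested, so that values of single copies are uncertain, and the difference between the tandem genes and the F-box genes elsewhere was not tested.

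**Figure D5:**
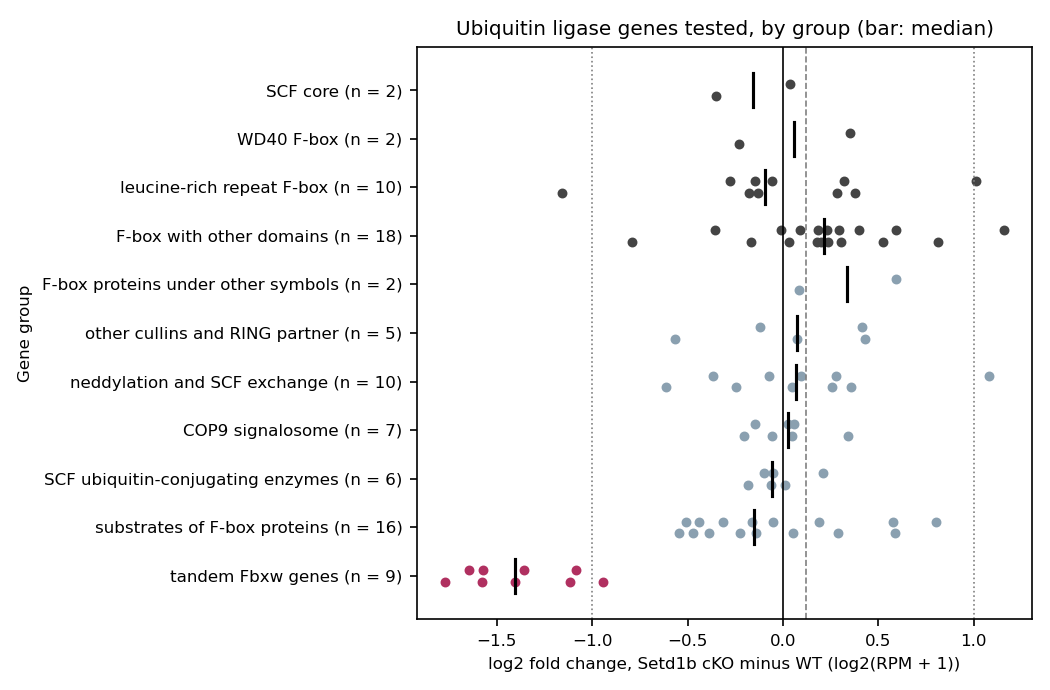
Log2 fold change (Setd1b cKO minus WT, on log2(RPM + 1)) of each gene tested, by class of F-box or SCF gene, by list of partner genes and substrates, and for the tandem Fbxw genes, with a bar at the median of each group, a dashed line at the median of all transcripts (0.12) and dotted lines at 2-fold. The tandem Fbxw genes lie between -1.77 and -0.94, while the other groups have medians between -0.16 and 0.34.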

How the data were processed

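Single-oocyte cDNA was amplified with the SMARTer Ultra Low kit and sequenced by the authors, who trimmed the reads, mapped them with Hisat to GRCm38, removed hits of low mapping quality and quantified oocyte transcripts with merged isoforms in SeqMonk. They deposited log2 RPM. The values fit a scaling of each library to its mapped reads with 0.9 read put for 0 reads, which was read from the values. The submitters' processing notes also name bcl2fastq 1.8.4 and featureCounts 1.4.4. Whether counting used the strand is not given in the sources used here.

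With the lowest value of each library taken as 0.9 read, 100% of the other values gave whole reads within 0.1 read. Values were set to log2(RPM + 1), with 0 RPM for 0 reads, and the 18179 transcripts with at least 1 RPM in at least 3 of 7 libraries were compared with limma 3.58.1 in R 4.3.3 (lmFit, eBayes with intensity trend, no covariates). Such fold changes understate the change of low genes. The study used a model for counts. As the authors deposited log2 RPM, limma on the log scale was chosen here as the main test. As an alternative, voom was run on the whole reads (443 higher and 328 lower transcripts). A transcript passed with an adjusted p (Benjamini-Hochberg) under 0.05 and more than 2-fold.

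Genes were matched by the deposited symbol where gene and transcript share a strand, with the row of the highest mean (Fbxo16 has 2). Gene spans and principal transcript lengths came from GENCODE M21, and promoters from RefSeq on GRCm38.p6. Of the 40 transcripts, 20 overlap a transcript of the other strand, and 4 (Fbxl12, Fbxo30, Fbxo41, Fbxo48) share less than 0.5 of the joint span with the annotated gene. Some genes that the symbols select are not reported or counted here. Named were genes past the threshold, SCF core and cell cycle genes, the 6 highest means and the 5 largest changes in each direction at a mean of at least 4 RPM. Other lists were named where past the threshold. Members and lists were chosen with earlier results of these data known. The fit was tested on simulated data. Alternatives were other pseudocounts, filters, scalings and variance models, voom, a replicate block, and each library left out. Leaving out cKO replicate 4 with WT replicate 3 was added after seeing the data. Python 3.11.15 with numpy 2.4.6, pandas 2.3.3 and matplotlib 3.10.9 was used otherwise.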

Additional observations from a re-analysis of the deposited data

Results flagged for a closer look

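In 3 of the 32 genes tested, 1 of the 4 Setd1b cKO libraries lay far from the others, with a gap to the nearest library that, as a share of the range, was above Dixon's critical value, where chance gives about 1 in 20. No WT library was examined for this, as the group has 3. In each case the library was cKO replicate 4. For Fbxl21 it was the lowest, at 8.27 RPM against 13.7 to 13.8 RPM (gap 0.967 of the range). For Fbxo32 it was the highest, at 4.66 RPM against 2.00 to 2.38 RPM (gap 0.860). Fbxo34 also had it highest, at 157 RPM against 123 to 128 RPM (gap 0.860).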

How the results depend on the processing

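Over 21 named genes and 440 refits, 405 kept direction and side of the threshold, 24 turned direction, 6 lost the threshold and 5 passed it, and 16 genes turned in none. Higher transcripts (683) numbered 315 with a pseudocount of 5 RPM, 174 without a filter, 428 with quantile normalisation, 443 with voom, 327 with voom and median-of-ratios scaling, 1029 without cKO replicate 4 and WT replicate 3, and 171 to 850 with each library left out. Lower transcripts (355) numbered 129 without a filter, 498 without the pair of libraries and 109 to 437 with each library left out. Higher F-box and SCF genes (0) numbered 2 with the replicate block, 2 without the pair of libraries and 0 to 1 with each library left out, and lower ones (1) 0 to 1. None of the genes that turned was past the threshold in any refit, and the cause was not tested. Directions turned after centring for Rbx1 (-0.12) and with voom and median-of-ratios scaling (-0.093). Scaling by the reads within transcripts turned Fbxo30 (0.068) and Skp1a (0.064), and quantile normalisation turned Skp1a (0.45), as did leaving out the pair of libraries (0.0062). With each library left out, Fbxo5 ran from -1.05 to 0.19, Fbxo30 from -0.19 to 0.22, Rbx1 from -0.19 to 0.36, Skp1a from -0.084 to 0.074 and Btrc from -0.62 to 0.14.

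The replicate numbers were not taken to pair the oocytes, because the study's methods do not pair them. Deviations from the group means correlated at 0.19, 0.29 and -0.13 for numbers 1, 2 and 3. The value was 0.61 for cKO replicate 4 with WT replicate 3, and cKO replicate 3 was at 0.092 with WT replicate 2 and 0.079 with WT replicate 1. Deviations within a genotype are tied to each other through their mean, so these correlations cannot decide the pairing. Blocking on the replicate number, in which cKO replicate 4 has no partner, gave 924 higher and 479 lower transcripts, among them Fbxl21 (1.18, limma adjusted p = 0.0296) and Fbxo25 (1.21, adjusted p = 0.0431). The block turned Fbxo5 (0.19), Fbxo30 (0.089), Rbx1 (-0.19), Skp1a (0.074) and Btrc (0.14). Under the filter on low values, 8 genes had at most 22 reads in any library, which limits what could be seen. Without the filter, 1 of them, Fbxo41, had an adjusted p under 0.05 (0.0334, log2 fold change 0.46).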

Other observations

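Some F-box genes had no row under their own symbol on their own strand, and for 16 genes a transcript was assigned by coordinates, with at least 0.5 of the joint span shared, a step chosen after seeing the data. Of these 14 were tested, with 0 past the threshold and 2 at an unadjusted p under 0.05 in limma (against 21.7% of all transcripts tested), 8 above 0 and 6 below, and a median log2 fold change of 0.08. Fbxo8, the most abundant after Skp1a, was at 367, 422, 289 and 141 RPM in the Setd1b cKO and 294, 249 and 164 RPM in the WT (log2 fold change 0.30, SE 0.37, limma adjusted p = 0.706). The iron-sensing ligase gene Fbxl5 was at 54.0, 68.8, 45.2 and 15.6 RPM in the cKO and 62.3, 65.5 and 22.4 RPM in the WT (-0.16, SE 0.50, adjusted p = 0.901). In both genes cKO replicate 4 and WT replicate 3 were again the lowest of their groups. Besides Fbxw7, Fbxo10 alone of the 14 had no overlap between the genotypes (against 20.3% of all transcripts tested), at 9.11, 8.89, 10.7 and 10.4 RPM in the cKO and 6.96, 3.62 and 6.55 RPM in the WT (0.72, SE 0.28, adjusted p = 0.157).

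The transcripts that overlap the 40 genes on the other strand numbered 24, of which 15 were tested and 1, that over Fbxl21, was past the threshold (against 5.71% of all transcripts tested). In 9 of the 24 the level was above that of the F-box gene itself. The transcript that overlaps Fbxl12 by 384 bases was at 335 to 1126 RPM in the cKO and 198 to 527 RPM in the WT, whereas Fbxl12 was at 3.74 to 6.53 and 4.62 to 6.92 RPM. Another lies within the transcript of Fbxo30 over 8665 bases and was at 3.85 to 6.84 RPM in the cKO and 0.385 to 2.06 RPM in the WT (log2 fold change 1.32, limma adjusted p = 0.0522).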
